A study of Sus scrofa with 30 samples.

Results

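The 10 pig embryos (Sus scrofa) collected on Day 10 after insemination, 5 female and 5 male, were examined one by one for how far each had moved between the Day 8 and the Day 12 state. They were all the Day 10 embryos of a series of 30 single-embryo RNA sequencing libraries, which also held 10 embryos each of Days 8 and 12, again 5 of each sex. Whole embryos, embryonic disc and trophectoderm together, had been flushed from German Landrace × Pietrain gilts whose cycles were synchronised with Altrenogest, PMSG and human chorionic gonadotropin, and every gilt was inseminated with semen of 1 Pietrain boar. No other treatment was given, so day and sex were the only labelled groups, with gilts assigned to their day of slaughter at random. Sex had been set by quantitative PCR for SRY on DNA of the same embryo. Embryos are named here by sex and label number, as in F433 for a female and M453 for a male. The gilt of each embryo was not given in the labels. The paper states that at least 1 female and 1 male of a day shared a gilt. Fewer gilts were slaughtered on each day than embryos were sequenced, so the 10 embryos came from fewer litters than embryos. All tests took the 10 embryos as independent. The p-values across embryos therefore measure the spread among these 10 embryos and not among litters.

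Between these days the pig embryo changes from a hollow sphere to a long filament. The trophectoderm, the outer layer that will form the placenta, makes estrogen and an interleukin 1 beta peculiar to the pig conceptus, and estrogen serves as the signal by which the sow recognises pregnancy. Embryos of a litter do not pass through these steps at the same time, which is why embryos of one calendar day can be compared along an axis of progress. Because the libraries were made from whole embryos, fewer cells of a type and less RNA per cell cannot be told apart.

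The total counts per Day 10 embryo ran from 19762947 to 32448748, over 11675 genes that the authors kept for this day. All 10 libraries behaved as their sex label said. The Y-linked gene LOC100624149 lay between 204 and 236 CPM (reads of the gene scaled to a common library size with TMM factors) in the 5 males and at no more than 0.0999 CPM in the 5 females. Among pairs of libraries of the same sex, the lowest chi-square was 20.7 per degree of freedom (F315 and F317), so no library was a copy of another of its sex. The nearest profile to each embryo was that of an embryo with a close label number (F433 with M435, M453 with F454, F315 with F317, M318 with M321, and M333 for F336), with the exception of M333, whose nearest was M321. F433, F454, M435 and M453 stood apart from the other 6 embryos on the second component described below, and what the numbers stand for is not given in the labels, so litter and progress cannot be told apart.

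The first principal component (PC1) of the gene-centred log2 CPM held 37.4% of the variance among the Day 10 embryos, PC2 held 20.7% and PC3 14.2%. F433 had the lowest PC1 score, at -35.4. M435 (-23.1), F317 (-22.4), M318 (-16.5), M321 (-15.3) and F315 (-12.5) followed. F336 (7.69) and M333 (13.5) lay above the mean, and F454 (51.1) and M453 (52.8) lay far beyond them. The scores therefore formed a lower group of 6, a pair in the middle and a pair at the top, each with both sexes. The sign of PC1 was set so that genes higher on Day 12 than on Day 8 pointed upward, so its direction is no result.

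**Figure D1:**
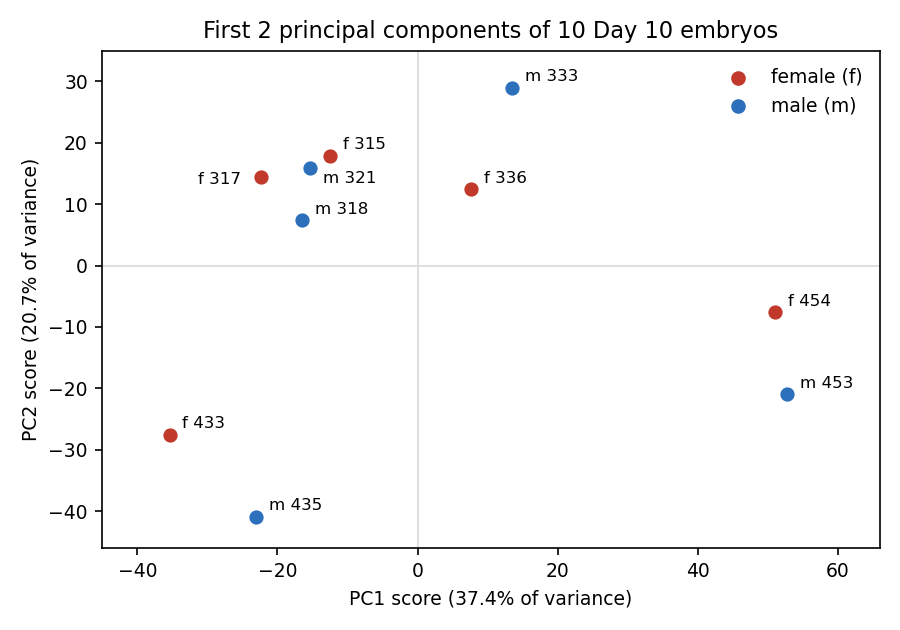
Scores of the 10 Day 10 embryos on PC1 (horizontal, 37.4% of variance) and PC2 (vertical, 20.7%), red for female and blue for male, labelled by embryo number. F454 and M453 lie at the right, with PC1 scores of 51.1 and 52.8, and the 4 embryos numbered above 400 lie below 0 on PC2.

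To ask whether this spread followed the course from Day 8 to Day 12, each embryo was placed on the straight line from the Day 8 mean (position 0) to the Day 12 mean (position 1), a line in which no Day 10 embryo took part. The Day 10 embryos had a mean position of 0.370 ± 0.0904 (SD, n = 10). F433 was nearest to Day 8, at 0.263. M435 and F317 followed at 0.314 and 0.315, and M318 and M321 and F315 lay at 0.324, 0.326 and 0.332. F336 had reached 0.369 and M333 0.401. F454 and M453, at 0.513 and 0.54, were the only embryos past the middle of the line. They were also the only ones nearer to the Day 12 mean than to the Day 8 mean, F454 by a root mean square log2 distance of 1.41 against 1.43 and M453 by 1.38 against 1.46. No position of a Day 10 embryo overlapped with those of Day 8, which ended at 0.102, or of Day 12, which began at 0.876.

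**Figure D2:**
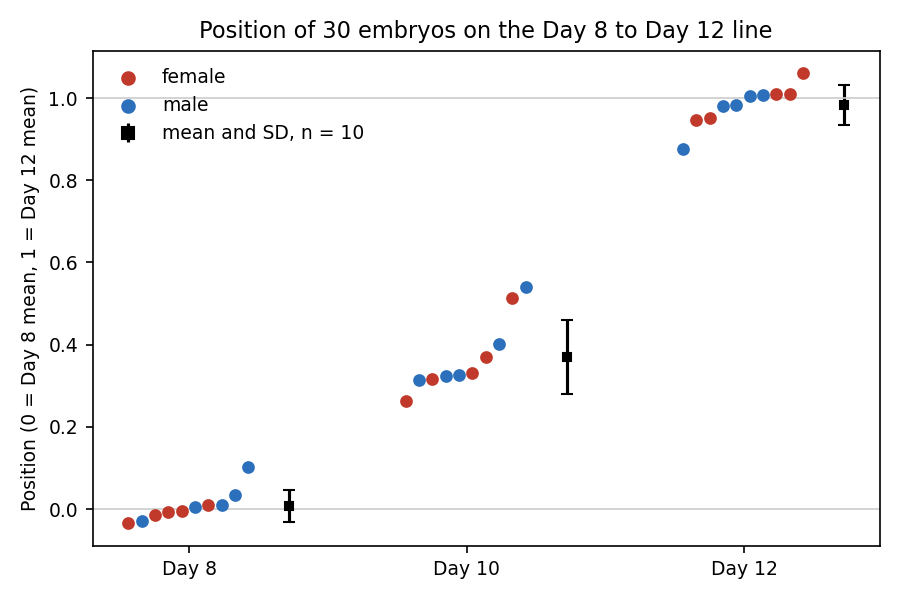
Position of each of the 30 embryos (points, red female and blue male, sorted within a day) on the line from the Day 8 mean (0) to the Day 12 mean (1), with the mean and SD of each day (black, n = 10). Day 10 embryos cover 0.263 to 0.540, and no day overlaps with another.

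The order of the embryos on PC1 was their order in position. With PC1 taken from the genes in odd places of the identifier order and the position from those in even places, no gene entered both. Pearson's r was then 0.976 (permutation p = 2e-05, 100000 resamples, 3.5e-05 adjusted over 7 relations) and Spearman's rho was 0.879 (permutation p = 0.00174, adjusted 0.00248). Both sets of genes were read in the same 10 embryos, and their PC1 scores had r = 0.994. The split therefore did not make PC1 and position independent, and the sign of r was set by the orientation of PC1. These p-values are no independent test of whether the spread followed the course from Day 8 to Day 12. Without the 2 embryos farthest from the median, F454 and M453, r was 0.962 (permutation p = 0.00152, adjusted 0.00266, n = 8) and rho was 0.762 (permutation p = 0.037, adjusted 0.0518), and with PC1 built anew from those 8 embryos r was 0.806 (permutation p = 0.0138). Within the 6 embryos numbered below 400 it was 0.987 (exact permutation p = 0.00139, the smallest that 720 orders allow, adjusted 0.00243), and the 4 others were too few for a value. When PC1 was built anew from those 6 embryos, its r with position was 0.415 (permutation p = 0.413), so their own main axis was not shown to follow the line. PC1 rose with the distance from the Day 8 mean (r = 0.994, permutation p = 1e-05, the smallest that the resamples allow, adjusted 2.3e-05, and r = 0.977 without the same 2 embryos). Its relation to the distance from the Day 12 mean rested on F454 and M453, with r = -0.861 over 10 embryos (permutation p = 0.00532, adjusted 0.00621) and r = -0.276 without them (permutation p = 0.498, adjusted 0.498).

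2 technical measures moved with PC1 as well. The TMM scaling factor went from 1.10 in F433 to 0.915 in M453 and 0.910 in F454 (r = -0.896, permutation p = 0.00036, adjusted 0.000504, and r = -0.705 without that pair of embryos, adjusted p = 0.0542 by permutation), although within the 6 embryos numbered below 400 its r was -0.411 (exact permutation p = 0.397). The total counts had r = 0.676 with PC1 (permutation p and adjusted p 0.0299), r = 0.722 without the pair (permutation p = 0.0405, adjusted 0.0542) and r = 0.804 within those 6 (exact permutation p = 0.0486, adjusted 0.068). The part of either in the results along PC1 was not tested beyond the scalings given below.

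The SD of the position was largest among the Day 10 embryos (0.0904), against 0.0389 for Day 8 and 0.0496 for Day 12. The mean absolute deviation from the day's median was 0.0614 on Day 10 against 0.0251 on Day 8 (permutation p = 0.203) and 0.0352 on Day 12 (permutation p = 0.349, both adjusted to 0.349), so the larger value of Day 10 did not pass the test. Nor did a difference between the sexes. The mean PC1 score was -2.28 ± 33.7 in females and 2.28 ± 31.5 in males (SD, n = 5 each, exact two-sided permutation p = 0.794 over 252 splits).

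Along PC1, 2252 of 11675 genes rose (19.3%) and 2198 fell (18.8%) at an adjusted p under 0.05, in edgeR's quasi-likelihood test with Benjamini-Hochberg adjustment and sex as a second term. The score used for a gene came from the odd or even set of genes to which it did not belong, and a slope is the log2 change per SD of the score. The scores of both sets had r = 0.994 over the same 10 embryos. The split kept a gene out of its own score but gave no independent axis. PC1 is the largest axis of spread of these embryos, so many calls along it were bound to follow. The calls describe which genes make up that axis. The 10 embryos together spanned 2.85 SD. Scaling by library size alone gave 1408 rising and 3736 falling genes (12.1% and 32.0% of all genes). Rising genes then made up 27.4% of the calls in place of 50.6%. Without F454 and M453 the counts were 1070 and 972 (9.16% and 8.33% of all genes). Without the 4 embryos numbered above 400 they were 257 and 140 (2.20% and 1.20%). The counts that each list below has under an alternative are to be read against these shares. Without the pair 696 of the 2252 rising and 622 of the 2198 falling genes were still called, and without the 4 embryos 203 and 96. The slope kept its sign without the pair in 92.5% of the genes that rose and 94.6% of those that fell. Both omissions were chosen after the data were seen. Of 151 called genes named below, 84 no longer passed without the pair, 11 of them with a change of sign, 135 no longer passed without the 4 embryos, and 35 no longer passed with library size alone, none of those with a change of sign.

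Of 13103 genes compared between the 10 Day 12 and the 10 Day 8 embryos, 21.2% were higher and 10.6% lower on Day 12 (adjusted p under 0.001 and more than a 1-unit log2 difference), and no Day 10 embryo entered that comparison. Among the 2249 rising genes found in both tables, 37.9% were higher and 5.56% lower on Day 12. Among the 2198 falling genes, 1.73% were higher and 23.2% lower, against 17.6% and 10.5% of all 11665 shared genes. Read from the other side, 41.6% of the genes higher on Day 12 rose along PC1 and 1.86% fell, and 41.5% of those lower on Day 12 fell and 10.2% rose. Across genes, which are not independent replicates, the PC1 loading and the Day 8 to Day 12 log2 change had r = 0.505, whose sign was set by the orientation of PC1. Of the 4450 genes that moved along PC1, most had no call between Days 8 and 12, and 125 that rose along PC1 were lower on Day 12 than on Day 8.

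**Figure D3:**
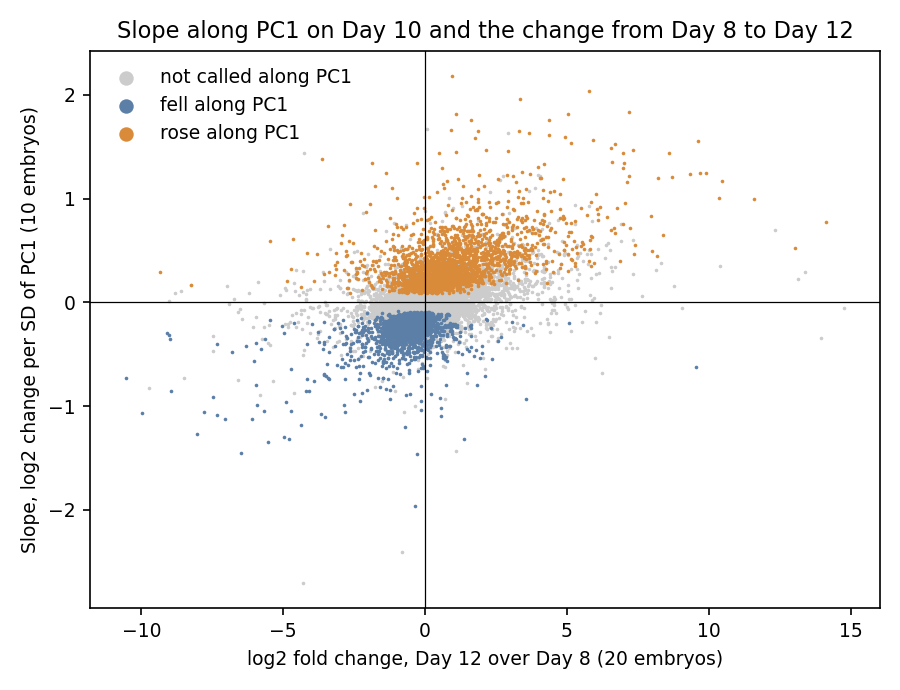
Slope along PC1 among the 10 Day 10 embryos (vertical, log2 change per SD) against the log2 fold change of Day 12 over Day 8 in 20 other embryos (horizontal), 1 point per gene for 11665 genes, coloured by the call along PC1. Rising genes (orange) lie more often to the right and falling genes (blue) to the left, with an r of 0.505 across genes.

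The 20 most read genes on Day 10 were headed by 2 keratins. KRT8 and KRT18, the keratin pair of simple epithelia, held 22452 ± 2997 CPM and 15236 ± 2029.7 CPM (SD, n = 10). KRT18 fell along PC1 (slope -0.16 ± 0.05 SE, adjusted p = 0.0165), from 14609 CPM in F433 to 11570.0 CPM in M453, whereas KRT8 did not pass (slope -0.09 ± 0.06, adjusted p = 0.27). The slope of KRT18 was 0.05 without F454 and M453. EEF1A1, a translation elongation factor, rose with a slope of 0.16 ± 0.03 (adjusted p = 0.00322) over a range of 10121 to 14393 CPM. Among lysosomal genes, GM2A, the activator of ganglioside breakdown, was nearly even at 6851 to 8569.5 CPM (slope 0.09 ± 0.03, adjusted p = 0.0562), and PSAP, the precursor of the saposins, rose (slope 0.14 ± 0.05, adjusted p = 0.0442). Both were much lower on Day 12, where GM2A had 71.7 CPM and PSAP 404 CPM. ALDH1L2, a mitochondrial folate enzyme, rose from 3039 CPM in F433 to 6902 CPM in M453 (slope 0.32 ± 0.06, adjusted p = 0.00267), and HAVCR1, a membrane receptor, from 4477 to 6544 CPM (slope 0.18 ± 0.04, adjusted p = 0.00209). SLC37A2, a sugar phosphate exchanger, ran from 3036 to 7229.7 CPM, ACTB, the beta actin, from 4727 to 8156 CPM and HSPA8, a heat shock cognate, from 3586 to 6158 CPM, with no call along PC1 for any of them.

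LOC100521229 and LOC100157453, neighbours on chromosome 15 with no product named in the reference, lay at 4309.9 to 12686 and 4383 to 8378 CPM, and only LOC100521229 was called (slope 0.39 ± 0.10, adjusted p = 0.0114). The difference between them was not tested. LOC100521229 had a slope of -0.51 without the 4 embryos numbered above 400. The remaining highly read genes were IL1B2 and unplaced loci that followed it. IL1B2, the interleukin 1 beta gene of the pig conceptus, held 3361, 3339.6, 10789, 12115, 7454, 9434, 5466, 12782, 14044 and 20514 CPM in the order of PC1, from F433 to M453. The lowest values were those of F433 and M435 and the highest that of M453, but F336 was low at 5466 CPM and the slope of 0.55 ± 0.21 did not pass (adjusted p = 0.0681). 8 unplaced loci, among them LOC110258582, LOC110255300 and LOC110258095, had r between 0.979 and 0.998 with IL1B2 over the 10 embryos, so reads may be divided among copies and IL1B2 is uncertain as a single gene. On the other days IL1B2 was at 2.35 ± 2.01 CPM on Day 8 and 99.4 ± 59.5 CPM on Day 12.

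The spread among embryos at a mean CPM of 5 or more was headed by sex. Of the 25 genes with the largest SD of log2 CPM, 7 were Y-linked and 1 X-linked. Among the Y-linked genes LOC110257905 also rose along PC1 (slope 0.45 ± 0.11, adjusted p = 0.00683), with 26.7, 37, 34.5, 49.7 and 65.5 CPM in M435, M318, M321, M333 and M453, so its rise is one over 5 embryos. The translation factor gene EIF1AY did not (slope -0.00 ± 0.09, adjusted p = 0.973), at 37 to 45 CPM in the males.

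Several autosomal genes were near on or off by embryo with no call along PC1. KRT12, a keratin gene at chr12:21600163-21607268 in Sscrofa11.1, had no count in M435 and F315 and 0.0471 CPM in F454, and between 29.8 and 69 CPM in the other 7. A count of 0 allows up to 0.126 CPM in M435 and 0.154 CPM in F315 (3 counts, counting error only). IL1B, the interleukin 1 beta gene of other tissues at chr3:43670126-43677125, was at 0.419 CPM in M435 and 45.8 CPM in F433, against 485 to 1703 CPM in the other 8 (adjusted p along PC1 = 0.434). In M435 IL1B2 still stood at 3339.6 CPM. LOC100525472 ran from 0.895 to 254 CPM and was high in M435, F317 and M453. The signal recognition particle RNA LOC102723301 was at 83.4 CPM in F315 and 102.8 CPM in F454 and no higher than 6.58 CPM in the rest. AASS, an enzyme of lysine breakdown, was above 6 CPM in 5 embryos and below 1 CPM in 5 (adjusted p = 0.0642). The pseudogene LOC100737436 and LOC102160003, LOC100626387 and X-linked LOC100521485 varied as widely, by 2.53, 2.22, 2.2 and 2.06 log2 units (SD), with no call. NMU, the neuromedin U gene, held 18, 73.5, 2.65, 3.4, 2.15, 2.05, 7.35, 0.987, 31.3 and 94.5 CPM in the order of PC1, and AGR2, RAB26 and IFITM3 were likewise highest in the 4 embryos numbered above 400, at both ends of PC1, with no call along it.

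The genes with the steepest rise were led by TGFB3, a ligand of the TGF beta family at chr7:99133873-99162239. It stood at 3.94, 7.08, 5.45, 5.72, 9.62, 6.11, 26, 57.9, 214 and 214 CPM in the order of PC1 (slope 2.18 ± 0.11 SE, adjusted p = 9.08e-06). The 6 lower embryos lay below 10 CPM, the middle pair at 26 and 57.9 CPM and the top pair at 214 CPM, with no overlap between these sets. TGFB3 was low on both other days, at 1.5 ± 0.737 CPM on Day 8 and 2.93 ± 2.01 CPM on Day 12. CXCL12, a chemokine, had the same form, at 9.28, 9.64, 8.6, 7.78, 11.6, 12.3, 23.7, 41.1, 179.5 and 141 CPM (slope 1.66 ± 0.11, adjusted p = 1.69e-05) and 0.23 ± 0.228 CPM on Day 8 and 0.436 ± 0.369 CPM on Day 12. Without the top pair neither passed (TGFB3 slope 1.10, adjusted p = 0.06, and CXCL12 slope 0.66, adjusted p = 0.069).

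SLC27A6, a fatty acid transporter, rose from 5.06 CPM in F433 to 337 and 316.9 CPM in F454 and M453 (slope 2.03 ± 0.31, adjusted p = 0.00151). ALOX12, a lipoxygenase of arachidonic acid, rose over 3.11 to 186 CPM (slope 1.96 ± 0.19, adjusted p = 0.000161), and LPGAT1, an acyltransferase of lysophospholipids, over 7.75 to 297.5 CPM (slope 1.65 ± 0.20, adjusted p = 0.000495). All 3 were higher on Day 12 than on Day 8, with log2 changes of 5.78, 3.34 and 3.33. GRHL3, an epithelial transcription factor (slope 1.81 ± 0.19), IRX3, a homeobox gene (slope 1.44 ± 0.16), NEURL1B, a ubiquitin ligase gene (slope 1.63 ± 0.09), ANKRD33B (slope 1.76 ± 0.32) and ARHGDIB (slope 1.56 ± 0.29) rose with adjusted p values from 6.6e-06 to 0.00357. ARHGDIB rose from 0.456 CPM in F433 to 35.2 CPM in M453 and went on to 49 ± 21 CPM on Day 12. FGF7, a fibroblast growth factor, was called as well (slope 1.56 ± 0.43, adjusted p = 0.0212), but its values of 2.45, 6.29, 0.80, 1.43, 0.755, 0.308, 2.98, 0.204, 19.4 and 55.9 CPM did not follow the order of the embryos. They were highest in M453, F454 and M435, and low in M333, and its slope turned to -1.05 without the top pair (adjusted p = 0.0946).

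The steepest falls were, with 1 exception, of genes higher on Day 8 than on Day 12. KITLG, the ligand of the receptor KIT, stood at 62, 60.3, 28.4, 40.3, 32.6, 34.5, 25, 15.6, 6.69 and 5.45 CPM in the order of PC1 (slope -1.18 ± 0.12, adjusted p = 6.4e-05). F433 and M435 were highest and the top pair lowest, and the means were 113 ± 16.2 CPM on Day 8 and 5.43 ± 4.52 CPM on Day 12. UPP1, which splits uridine, fell from 350.3 to 41.8 CPM between the first and the last embryo (slope -1.06 ± 0.10), SOAT1, which esterifies cholesterol, from 287 to 25.4 CPM (slope -1.05 ± 0.21) and FADS3, a member of the fatty acid desaturase family, from 157 to 19.2 CPM (slope -0.99 ± 0.11). FAM35A, a DNA repair gene, had the largest fall, from 81.5 to 4.44 CPM (slope -1.46 ± 0.21, adjusted p = 0.000904), and was at 179.9 ± 20.3 CPM on Day 8 and 2.02 ± 0.767 CPM on Day 12. NAT8L (slope -1.12 ± 0.23), FYB, an adapter of signalling in blood cells (slope -1.07 ± 0.15), S1PR5, a receptor of sphingosine 1-phosphate (slope -0.95 ± 0.13), CEP131, a centrosome gene (slope -1.31 ± 0.28), RNASE12 (slope -1.27 ± 0.32) and ADAMTSL2 (slope -1.05 ± 0.18) fell too. TMEM45A, the exception, which fell with a slope of -1.32 ± 0.30 (adjusted p = 0.00784), had no call between those days, at 10.9 ± 4.47 CPM on Day 8 and 28.8 ± 27.3 CPM on Day 12. Without the top pair FYB (slope -0.37, adjusted p = 0.196), CEP131 (slope -0.57, adjusted p = 0.29) and TMEM45A (slope -0.80, adjusted p = 0.0502) no longer passed. The other falls named here still passed. NAT8L had a slope of 0.085 without the 4 embryos numbered above 400.

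Among lists with at least 8 tested members, estrogen synthesis had the largest share of rising genes. Of 15 tested genes of estrogen synthesis 11 rose (73.3%) and none fell, against 19.3% and 18.8% of all genes (12.1% and 32.0% with library size alone, 9.16% and 8.33% without F454 and M453, 2.20% and 1.20% without the 4 embryos numbered above 400), and the median slope was 0.37 against 0.000649 for all genes. CYP17A1, which makes androgens from progestagens (chromosome 14, chr14:113805616-113820445), held 416, 844, 2551, 2386, 3489, 3585, 4866, 7672, 13022 and 11116 CPM in the order of PC1. F433 and M435 were lowest, the 4 next embryos between 2386 and 3585 CPM and the top pair highest, so that the embryos of a single day differed 31.3-fold (slope 1.29 ± 0.25, adjusted p = 0.00425). STAR, which brings cholesterol into the mitochondrion, rose through 71.8, 101, 215, 181, 243, 235, 489, 774, 1287 and 1117 CPM (slope 1.30 ± 0.18, adjusted p = 0.000807). CYP11A1, which cuts the cholesterol side chain, rose less steeply and was highest in M333, at 515, 619, 709, 665, 910.3, 872, 1501, 1840.1, 1561 and 1327 CPM (slope 0.53 ± 0.14, adjusted p = 0.0185).

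The aromatase genes, whose product turns androgens into estrogens, moved the same way. CYP19A1 held 164, 274, 1105, 1199, 1339, 1414, 1557, 2768, 3485 and 3737 CPM (slope 0.99 ± 0.29, adjusted p = 0.0279), CYP19A2 ran from 31.3 to 779.7 CPM (slope 1.17 ± 0.28, adjusted p = 0.0126) and CYP19A3 from 0.414 to 118 CPM (slope 1.61 ± 0.36, adjusted p = 0.00833). These are near-identical copies, so the division of reads among them is uncertain. Electron donors of the pathway rose alongside, namely POR (177 to 1695 CPM, slope 0.79 ± 0.20), CYB5A (768 to 1775 CPM, slope 0.37 ± 0.04) and FDX1 (216 to 356 CPM, slope 0.21 ± 0.03). HSD17B1, which completes estradiol, rose by 0.23 ± 0.07 (adjusted p = 0.0327) and HSD17B4 by 0.32 ± 0.07 (adjusted p = 0.00339). The steroid sulfatase gene STS (slope 0.08 ± 0.05), FDXR (slope 0.08 ± 0.05), HSD17B7 (slope 0.03 ± 0.08) and the cholesterol carrier gene TSPO (slope 0.25 ± 0.46) did not pass. STAR, CYP19A2, POR, FDX1, HSD17B4 and the 4 genes without a call were named after their values were seen. With library size alone as the scale 10 of the 15 rose, without F454 and M453 8 rose and 1, TSPO, fell, and without the 4 embryos numbered above 400 4 rose, STAR, CYP11A1, CYB5A and HSD17B4.

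**Figure D4:**
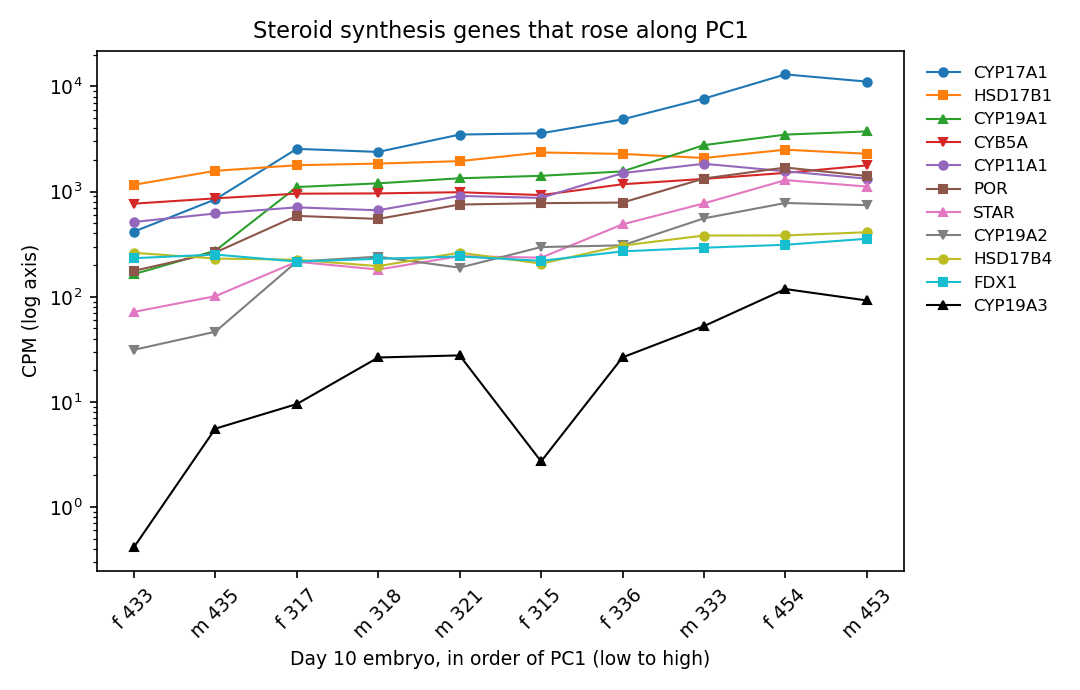
CPM (log axis) of the 11 steroid synthesis genes that rose, in the 10 Day 10 embryos ordered from the lowest to the highest PC1 score, 1 line per gene. CYP17A1 climbs from 416 CPM in F433 to 13022 CPM in F454, and CYP19A3 dips to 2.72 CPM in F315.

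Most of these steroid genes were higher on Day 10 than on either other day. In 2.43% of the 13103 genes all 10 Day 10 embryos lay above all 20 embryos of Days 8 and 12, and in 0.603% (79 genes) all lay below. 9 of the 11 rising steroid genes were above in this sense, the exceptions being HSD17B4 and CYP19A3. CYP17A1 stood at 0.702 ± 0.369 CPM on Day 8 and 92 ± 52 CPM on Day 12, and CYP11A1 at 232 ± 34.3 CPM on Day 8 and 387 ± 129.9 CPM on Day 12. Of the 2249 rising genes 184 lay above both other days (8.18%) and none below. Of the 2198 falling genes 1 lay above, which was KRT18, and 21 below.

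Of 4 tested genes of interleukin 1, 1 rose and none fell (25% and 0%, against 19.3% and 18.8% of all genes). The one that rose was IL1RAP, the coreceptor (slope 1.46 ± 0.40, adjusted p = 0.0205). Its 1.16, 3.48, 0.45, 0.849, 0.437, 0.308, 1.39, 0.34, 9.99 and 27.4 CPM were highest in M453 and M435 and F454, and its slope was -0.83 without the top pair (adjusted p = 0.0901), so the call rested on F454 and M453. In the interferon list 1 of 11 tested genes rose and none fell (9.09% and 0%, against 19.3% and 18.8% of all genes). The single rising member was the receptor gene IFNAR1 (slope 0.40 ± 0.14, adjusted p = 0.0406), whose slope was likewise negative without the pair (-0.21). With library size alone as the scale none of the list rose and 2 fell, where 12.1% and 32.0% of all genes did. PAG1 matched the name pattern set for the pregnancy-associated glycoproteins but is a lymphocyte adapter gene, and it fell (slope -0.45 ± 0.07, adjusted p = 0.000589).

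Of 18 tested trophectoderm genes 6 rose and 3 fell (33.3% and 16.7%, against 19.3% and 18.8% of all genes, median slope 0.13, 5 and 6 with library size alone as the scale, 7 and 1 without F454 and M453). HAND1, a transcription factor of trophoblast and mesoderm, held 25.4, 20.8, 57.4, 63.3, 42.2, 71, 44.8, 68.7, 161 and 154 CPM and rose (slope 0.78 ± 0.15, adjusted p = 0.00428) against 1065 ± 381 CPM on Day 12. Its slope was -0.011 without the 4 embryos numbered above 400. F454 and M453 were highest, and the other 8 lay between 20.8 and 71 CPM. PPARG, a nuclear receptor for fatty acid derivatives, rose from 0.912 to 14.6 CPM (slope 1.21 ± 0.15, adjusted p = 0.000166), and ETS2, a factor of trophoblast gene control, from 28.1 CPM to 102 CPM in F454 (slope 0.59 ± 0.05, adjusted p = 2.71e-05). TEAD3, a partner of YAP (slope 0.23 ± 0.04), and TFAP2C (slope 0.11 ± 0.03) rose slightly. Against these, GATA2 fell (slope -0.28 ± 0.04, adjusted p = 0.000309), as did TFAP2A (slope -0.27 ± 0.06, adjusted p = 0.00369).

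Of 21 tested hypoblast genes, the layer that forms the yolk sac, 10 rose and none fell (47.6% and 0%, against 19.3% and 18.8% of all genes, median slope 0.21), against 4 and 1 with library size alone and 3 and 1 without the top pair. Those named by their level were mainly genes of the basement membrane, COL4A1 (slope 0.30 ± 0.07), COL4A2 (0.22 ± 0.07), LAMB1 (0.23 ± 0.06) and LAMC1 (0.15 ± 0.04), which cells other than hypoblast also make, with DAB2, an endocytic adapter (slope 0.16 ± 0.04, adjusted p = 0.00877). Without the 4 embryos numbered above 400 none of the list rose or fell, where 2.20% and 1.20% of all genes did. The median slope of the list was then -0.013, and COL4A1, COL4A2 and LAMC1 had slopes of -0.074, -0.18 and -0.013. The hypoblast factors GATA4, GATA6, SOX17 and FOXA2, named after their values were seen, had slopes of 0.02 ± 0.06, -0.08 ± 0.04, 0.14 ± 0.08 and 0.10 ± 0.10 with no call. Of 12 tested lipoprotein and serum carrier genes 3 rose and none fell (25% and 0%, against 19.3% and 18.8% of all genes, median slope 0.12, 1 and 0 with library size alone as the scale, 2 and 0 without F454 and M453). APOA1 had a slope of 0.22 ± 0.07, APOE of 0.22 ± 0.07, and RBP4, the carrier of retinol in blood, of 1.003 ± 0.14 (adjusted p = 0.000477), from 4.6 CPM in F433 to 71.5 CPM in M453.

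Of 14 tested epiblast genes 2 rose and 1 fell (14.3% and 7.14%, against 19.3% and 18.8% of all genes, median slope -0.07, 2 and 4 with library size alone as the scale, 2 and 1 without F454 and M453). Those that rose were DPPA5 (slope 1.34 ± 0.19, adjusted p = 0.00117) and TDGF1, a coreceptor of NODAL (slope 0.62 ± 0.14, adjusted p = 0.00856), while UTF1 fell (slope -0.88 ± 0.16, adjusted p = 0.00178). DPPA5 held 22.3, 38.9, 68.4, 63.8, 131, 105.1, 73.3, 102.99, 621 and 494 CPM, highest in the top pair, and its slope was -0.27 without the 4 embryos numbered above 400. POU5F1 and NANOG, the central pluripotency factors, had slopes of -0.07 ± 0.10 and -0.23 ± 0.13 with no call, and were named after their values were seen. Of 8 tested genes of the primitive streak and mesoderm 1 rose and 1 fell (12.5% and 12.5%, against 19.3% and 18.8% of all genes, median slope 0.07, 1 and 1 with library size alone as the scale, 3 and 0 without F454 and M453). MIXL1 rose (slope 1.04 ± 0.32, adjusted p = 0.0241) at no more than 1.45 CPM, with F433 and M435 below the level of 3 counts, and TBX6 fell (slope -0.48 ± 0.16, adjusted p = 0.0334), with a slope of 0.01 without the pair.

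In the cell cycle list most called genes fell. Of 28 tested genes 15 fell (53.6%) and 1 rose, against 18.8% and 19.3% of all genes, with a median slope of -0.19. With library size alone 21 fell, where 32.0% of all genes did, and without the top pair 7 fell, where 8.33% did. Without the 4 embryos numbered above 400 2 fell, where 1.20% of all genes did. RRM2, a subunit of ribonucleotide reductase, fell from 291 CPM in F433 to 120.3 CPM in M453 (slope -0.49 ± 0.06, adjusted p = 0.000134). The top pair lay below the 8 others, which ran from 157 to 291 CPM. MCM6 (slope -0.32 ± 0.04, adjusted p = 0.000161) and MCM7 (slope -0.33 ± 0.04, adjusted p = 0.000152), parts of the replicative helicase, fell likewise, and TOP2A (slope -0.28 ± 0.05) and CCNB1, the mitotic cyclin (slope -0.16 ± 0.05), fell less. MKI67, named after its value was seen, was not called over the 10 embryos (slope -0.08 ± 0.10, adjusted p = 0.555), but fell without the top pair (slope -0.33, adjusted p = 0.00826) and without the 4 embryos numbered above 400 (slope -0.96, adjusted p = 0.037). The single rise was of CDKN1A, an inhibitor of the cell cycle, from 7.5 to 20.3 CPM (slope 0.47 ± 0.06, adjusted p = 0.000309).

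Genes of fatty acids and of sterols were listed apart. Of 19 tested genes of fatty acid synthesis and binding 8 rose and 1 fell (42.1% and 5.26%, against 19.3% and 18.8% of all genes, median slope 0.13), with 6 and 2 under library size alone and 4 and 0 without the top pair. ACSL3, which activates long-chain fatty acids, held 229.9, 396, 604, 650.4, 768, 516, 443, 1252, 2368 and 2135 CPM (slope 0.92 ± 0.13, adjusted p = 0.000922), highest in the top pair and M333. ELOVL6, an elongase, rose from 595 to 2379.7 CPM in F454 (slope 0.65 ± 0.11, adjusted p = 0.00175). FABP3, a fatty acid binding protein gene (slope 0.37 ± 0.07), FADS2, a desaturase gene (slope 0.22 ± 0.06), and SCD, the stearoyl-CoA desaturase (slope 0.13 ± 0.03), rose by less, and PLIN2, the coat protein of lipid droplets, fell (slope -0.21 ± 0.05, adjusted p = 0.00536). Of 22 tested sterol synthesis genes 2 rose and 2 fell (9.09% and 9.09%, against 19.3% and 18.8% of all genes, median slope 0.07, 2 and 5 with library size alone as the scale, 1 and 0 without F454 and M453). SREBF2, the sterol regulator, rose (slope 0.47 ± 0.05, adjusted p = 7.32e-05), with PMVK (slope 0.27 ± 0.04), and ACAT2 (slope -0.23 ± 0.04) and MVD (slope -0.14 ± 0.05) fell. The difference between both lists was not tested.

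Of 13 tested prostaglandin genes 2 rose and 3 fell (15.4% and 23.1%, against 19.3% and 18.8% of all genes, median slope 0.18, 2 and 4 with library size alone as the scale, 1 and 1 without F454 and M453). PTGS2, the inducible cyclooxygenase, held 139.6, 178, 135, 161, 153, 136.5, 169, 76.8, 21 and 37.9 CPM, lowest in the top pair (slope -0.89 ± 0.21, adjusted p = 0.00947), whereas PTGES, a prostaglandin E synthase, held 589.8, 583, 574, 543, 589, 625, 681, 814, 1341 and 1149 CPM, highest in that pair (slope 0.44 ± 0.04, adjusted p = 2.76e-05). PTGES3 (slope -0.24 ± 0.04) and PTGES2 (slope -0.26 ± 0.04) fell, and PTGER4, a receptor of prostaglandin E2, rose (slope 0.83 ± 0.12, adjusted p = 0.000479). PTGES was lower on Day 12 than on Day 8, at 534 ± 60.9 CPM on Day 8 and 79.3 ± 48.1 CPM on Day 12.

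Of the signalling lists, BMP and TGF beta had 5 rising and 2 falling members of 17 (29.4% and 11.8%, against 19.3% and 18.8% of all genes, median slope 0.06, 4 and 5 with library size alone as the scale, 1 and 0 without F454 and M453). Beside TGFB3 these were the ligand genes BMP7 (slope 0.38 ± 0.08) and TGFB1 (slope 0.56 ± 0.08), the receptor gene BMPR1B (slope 0.77 ± 0.15) and the inhibitor gene NOG (slope 0.23 ± 0.08), while the target genes ID1 (slope -0.37 ± 0.06) and SMAD7 (slope -0.28 ± 0.09) fell. When each embryo was left out in turn, NOG was called in only 1 of 10 fits. Of 17 tested WNT genes 5 rose and none fell (29.4% and 0%, against 19.3% and 18.8% of all genes, median slope 0.06, 2 and 3 with library size alone as the scale, 0 and 0 without F454 and M453). The receptor genes were FZD4, with 62.6, 69.9, 66.4, 57.4, 59, 81.6, 144, 123, 242 and 166 CPM (slope 0.70 ± 0.06, adjusted p = 2.98e-05), FZD5 (slope 0.37 ± 0.09), LRP5 (slope 0.42 ± 0.11) and LGR4 (slope 0.18 ± 0.06), and the ligand gene was WNT9A (slope 0.36 ± 0.12). Of 18 tested FGF and ERK feedback genes 6 rose and 1 fell (33.3% and 5.56%, against 19.3% and 18.8% of all genes, median slope 0.18, 3 and 2 with library size alone as the scale, 1 and 0 without F454 and M453). The phosphatase gene DUSP5 rose from 130.02 to 706 CPM in F454 (slope 0.69 ± 0.08, adjusted p = 0.000207), with the receptor genes FGFR1 (slope 0.25 ± 0.08) and FGFR2 (slope 0.33 ± 0.10) and the inhibitor gene SPRY2 (slope 0.40 ± 0.09). Its relative DUSP6 fell (slope -0.36 ± 0.10, adjusted p = 0.0149), though with a slope of 0.13 without the top pair.

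Of 67 tested genes of oxidative phosphorylation 16 rose and 2 fell (23.9% and 2.99%, against 19.3% and 18.8% of all genes, median slope 0.03). With library size alone 4 rose and 14 fell, where 12.1% and 32.0% of all genes did. The slopes stayed between -0.218 and 0.215. NDUFA4 (slope 0.16 ± 0.04), SDHA (0.12 ± 0.03), ATP5L (0.13 ± 0.03), COX6A1 (0.15 ± 0.04) and COX6B (0.22 ± 0.04) were the rising members with the highest CPM, and NDUFS3 (-0.12 ± 0.03) and NDUFB10 (-0.22 ± 0.04) fell. Of 77 tested cytosolic ribosomal protein genes 3 rose (RPL10A, RPS15 and RPS26) and RPS27L fell (3.9% and 1.3%, against 19.3% and 18.8% of all genes, median slope 0.04). With library size alone none rose and 9 fell, where 12.1% and 32.0% of all genes did. Of 20 tested glycolysis genes 5 rose and 1 fell (25% and 5.00%, against 19.3% and 18.8% of all genes, median slope -0.00). With library size alone as the scale 1 rose and 4 fell, where 12.1% and 32.0% of all genes did. Without F454 and M453 9 rose and 1 fell, where 9.16% and 8.33% of all genes did. GAPDH fell from 1361 CPM in F433 to 661 CPM in F454 (slope -0.31 ± 0.05, adjusted p = 0.00106), and ALDOA, an aldolase gene (slope 0.20 ± 0.06), HK1, a hexokinase gene (0.18 ± 0.06), and the carrier genes SLC2A3 (0.09 ± 0.03), SLC2A1 (0.20 ± 0.07) and SLC16A1 (0.43 ± 0.13) rose.

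Carriers and junction genes moved in both directions. Of 21 tested amino acid transporters 6 rose and 5 fell (28.6% and 23.8%, against 19.3% and 18.8% of all genes, median slope -0.04, 5 and 6 with library size alone as the scale, 2 and 3 without F454 and M453). SLC16A10, a carrier of aromatic amino acids, rose from 55.1 to 208 CPM (slope 0.57 ± 0.08, adjusted p = 0.000488), with SLC3A1 (slope 0.32 ± 0.05), SLC1A1 (0.25 ± 0.05), SLC7A7 (0.21 ± 0.04) and SLC38A2 (0.50 ± 0.13), and SLC1A5 (slope -0.52 ± 0.15), SLC7A3 (-0.34 ± 0.08), SLC7A6 (-0.18 ± 0.06), SLC36A1 (-0.17 ± 0.05) and SLC43A2 (-0.10 ± 0.03) fell. SLC38A2 had a slope of -0.14 and SLC1A5 of 0.08 without the top pair. Of 15 tested genes of fluid transport 6 rose and 2 fell (40% and 13.3%, against 19.3% and 18.8% of all genes, median slope 0.15, 4 and 4 with library size alone as the scale, 4 and 2 without F454 and M453). CLDN4, a tight junction gene, held 244, 298.99, 313, 290.0, 352, 368, 391, 609, 884 and 644 CPM (slope 0.57 ± 0.06, adjusted p = 0.000111), and CLDN7 (0.21 ± 0.04), TJP1 (0.15 ± 0.04) and the sodium channel genes SCNN1A (0.21 ± 0.05) and SCNN1G (0.29 ± 0.04) rose by less. ATP1B3, which encodes a beta subunit of the sodium pump, fell (slope -0.27 ± 0.05, adjusted p = 0.00283). ATP1B1, the gene of another beta subunit, named after its value was seen, was called as rising. Its slope was -0.51 without F454 and M453 (adjusted p = 0.0666).

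Of 13 tested immediate early and heat shock genes 7 rose and 1 fell (53.8% and 7.69%, against 19.3% and 18.8% of all genes, median slope 0.27), with 5 and 2 under library size alone and 2 and 0 without the top pair. JUN rose from 10.4 CPM in F433 to 40.8 CPM in F454 (slope 0.53 ± 0.07, adjusted p = 0.000292), and DNAJB1, a chaperone gene (slope 0.30 ± 0.05), KLF6 (0.19 ± 0.05), ZFP36 (0.27 ± 0.09) and ATF3, with 27.6 and 31.5 CPM in the top pair and at most 12 CPM elsewhere (slope 0.59 ± 0.08, adjusted p = 0.000291), rose. HSPB1 fell (slope -0.20 ± 0.06). Their part in the other results was not tested. Of 20 tested amino acid stress genes 4 rose and 3 fell (20% and 15%, against 19.3% and 18.8% of all genes, median slope -0.04). With library size alone as the scale 3 rose and 7 fell, where 12.1% and 32.0% of all genes did. Without F454 and M453 none rose and 10 fell, where 9.16% and 8.33% of all genes did. SESN2 (slope 0.35 ± 0.04), CEBPB (0.45 ± 0.13) and TRIB3 (0.52 ± 0.15) rose beside ATF3, and XPOT (-0.25 ± 0.04), WARS (-0.14 ± 0.04) and ATF5 (-0.30 ± 0.05) fell. Of 13 tested hypoxia genes 3 rose and 4 fell (23.1% and 30.8%, against 19.3% and 18.8% of all genes, median slope 0.05, 2 and 4 with library size alone as the scale, 3 and 1 without F454 and M453). Those that rose were NDRG1 (slope 0.57 ± 0.07), PDK1 (0.39 ± 0.05) and BNIP3L (0.27 ± 0.07), and those that fell EGLN1 (-0.35 ± 0.05), ADM (-0.36 ± 0.13), VEGFA (-0.26 ± 0.06) and CA9 (-0.33 ± 0.11).

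**Figure D5:**
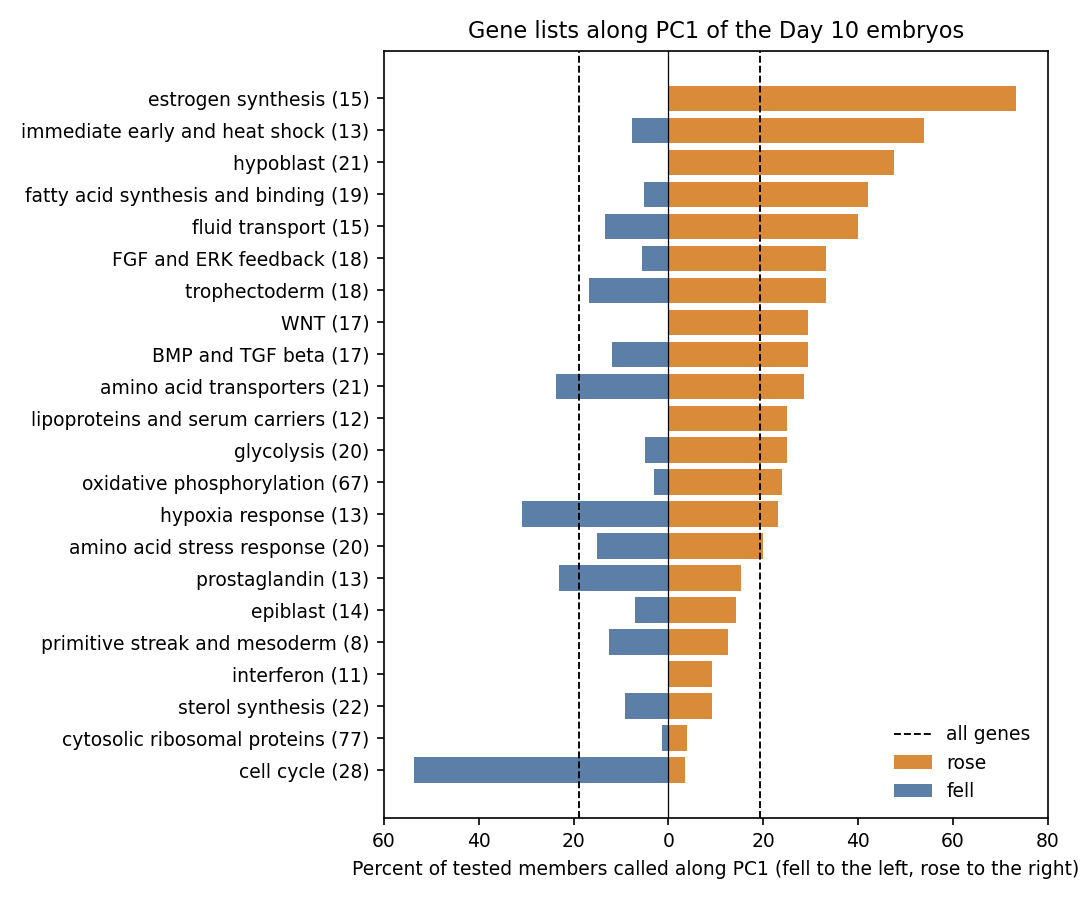
Percent of the tested members of each gene list (number tested in brackets) that rose (orange, right) or fell (blue, left) along PC1 of the 10 Day 10 embryos, for lists with at least 8 tested members. Dashed lines give the shares of all genes, 19.3% rising and 18.8% falling, and estrogen synthesis has the largest rising share (73.3%) and cell cycle the largest falling share (53.6%).

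Markers of cells of the mother were low apart from 1 gene. The summed level of 6 endometrium markers of 12 listed ran from 49.5 CPM in F433 to 121.2 CPM in M333, of which CST6, a cysteine protease inhibitor gene, gave 45.5 to 120.3 CPM and rose along PC1 (slope 0.32 ± 0.11, adjusted p = 0.0454). Of the others, MUC1 reached 9.50 CPM in M453, 7.61 in F454 and 2.46 in M435 and stayed below 0.6 elsewhere. ACP5 (uteroferrin) and ESR1 were highest in M435, at 6.62 and 4.65 CPM, and lay at or below 2.04 and 1.48 CPM in the rest. The 6 blood and leukocyte markers of 16 listed summed to 1.68 to 9.75 CPM. The hemoglobin gene HBB had no count in 6 embryos and 6.86 CPM in F336, and ALAS2, a heme synthesis gene, rose along PC1 (slope 0.55 ± 0.15, adjusted p = 0.0136). The other listed markers were not analysed here, and MUC1, ACP5, ESR1, SPP1 and HBB were named after their values were seen. The part of maternal cells in the rises of FGF7 and IL1RAP, which were high in the same embryos as MUC1, was not tested. Nor was their part in PC2, which set the embryos numbered above 400 apart.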

How the data were processed

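Read counts per gene, 1 column per embryo, were deposited by the authors without normalization. Per the methods, RIN-selected RNA gave stranded mRNA libraries, read as 100-bp single ends on a HiSeq, quality trimmed with Trim Galore in Galaxy, mapped to the NCBI Sus scrofa genome version 11.1 and filtered by a CPM cutoff. The aligner and the counter are not given in the sources used here. The Day 10 counts (11675 genes) were used for the 10 embryos, and the counts of all 30 embryos (13103 genes) for position and for Days 8 and 12.

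Counts were scaled by TMM in edgeR 4.0.16 (R 4.3.3) and turned into log2 CPM with a prior count of 2. CPM is per read and not per gene length, so levels were compared within a gene. PC1 was computed without scaling of genes, and each gene was tested with edgeR's robust quasi-likelihood F-test against the PC1 score of the other set of genes (odd or even places of the identifier order), with sex as a second term, Benjamini-Hochberg adjustment over all genes and a threshold of 0.05. The SE of a slope was derived from the slope and its F statistic. Day 12 was compared with Day 8 by the same test, without Day 10 embryos, at 0.001 and a log2 change above 1. Scores were related by two-sided permutation tests (100000 resamples, or all orders where called exact). Intervals and limits from counts cover counting error only. Scripts were tested on simulated data.

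Named genes were the 20 with the most reads, the 25 with the largest SD of log2 CPM at a mean CPM of 5 or more, the 12 steepest rising and 12 steepest falling at that level, and up to 5 called members per list and direction, in order of mean CPM, except 1 list member that is not reported here. The 26 lists and the members were chosen with earlier results of these data known. Alternatives were RLE and library-size scaling, count filters, other prior counts, genes scaled to SD 1, a robust GLM, DESeq2 1.42.0, no sex term, other scores and omission of embryos. Gene names and positions come from the RefSeq annotation of Sscrofa11.1.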

Additional observations from a re-analysis of the deposited data

Results flagged for a closer look

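Dixon's criterion was applied to 183 sets of values, namely log2(CPM + 0.1) of genes, the positions, PC1, PC2, the TMM factors and the total counts. In 4 sets an embryo lay far from the others. Chance gives about 1 in 20, so these flags were no more than chance gives. IL1B was at 0.419 CPM in M435, the lowest of the 10. HK1, a hexokinase gene, was lowest in M435 as well, at 84.9 CPM. BNIP3L, a mitophagy gene, was highest in M453, at 19.3 CPM. On Day 8, M103 had a position of 0.102, above the other 9 embryos of that day. No explanation was weighed for any of them.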

How the results depend on the processing

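With library size alone as the scale, 1408 genes rose and 3736 fell, and the median slope of all genes was -0.080. With genes at a mean CPM of 5 or more, PC1 held 45.4% of the variance. RLE size factors, count filters, scaling of genes, the robust GLM, DESeq2, no sex term and the other scores left both counts within 1.5 times those reported. Leaving out each embryo in turn gave 1556 to 2253 rising and 1489 to 2235 falling genes, both lowest without F454. The r of PC1 and position was then 0.884 to 0.988 (permutation p up to 0.00101), the variance on PC1 33.6% to 41.5%, the female minus male mean PC1 -24.3 to 11.9 (exact permutation p 0.23 to 0.984), and 19 to 24 of the 25 genes with the largest spread were shared. In all 10 such fits, 1098 of the 2252 rising and 994 of the 2198 falling genes were called. Among the genes named above, the call was kept least often for NOG, in 1 of the 10. It was kept in 2 for SLC2A3, RPS26 and ADM, and in 3 for PSAP, CA9, WNT9A and IFNAR1. 2 further alternatives, chosen after seeing the data, computed PC1 again, and their slopes are per SD of the new score. Without F454 and M453, 1070 genes rose and 972 fell. Without the 4 embryos numbered above 400, 257 rose and 140 fell, r was 0.415 (permutation p = 0.413), PC1 held 34.4% and 14 of the 25 genes were shared. The slope changed sign without the pair for KRT18 (0.045), FGF7 (-1.05), IL1RAP (-0.83), TBX6 (0.015), MVD (0.017), DUSP6 (0.13), IFNAR1 (-0.21), SLC38A2 (-0.14), SLC1A5 (0.075), CEBPB (-0.17) and ADM (0.019), and without the 4 embryos for LOC100521229 (-0.51), PSAP (-0.023), NAT8L (0.085), TFAP2C (-0.0050), HAND1 (-0.011), DPPA5 (-0.27), COL4A1 (-0.074), LAMC1 (-0.013), COL4A2 (-0.18), FADS2 (-0.0087), CCNB1 (0.018), BMP7 (-0.086), SLC38A2 (-0.029), CEBPB (-0.11), CA9 (0.089) and ZFP36 (-0.022), and the cause was not tested. No analysis paired by litter was possible because the gilt of each embryo was not given in the labels. At this depth 3 counts correspond to 0.101 to 0.154 CPM.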

Other observations

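PC2, which was not used for any test, set the 4 embryos numbered above 400 apart from the other 6. Its scores were -27.6, -40.9, -7.63 and -21 in F433, M435, F454 and M453, and 7.46 to 29 in the others. ENTPD1, which splits extracellular nucleotides, stood at 7.63, 24.7, 9.04 and 24.1 CPM in F433, M435, F454 and M453 and at 0.578 to 2.37 CPM in the other 6. ISG12(A), an interferon-stimulated gene, stood at 19.1, 54.1, 51.9 and 81.3 CPM in F433, M435, F454 and M453 and at 1.29 to 5.63 CPM in the other 6. NOS1, a nitric oxide synthase gene, stood at 5.1, 12.7, 12.7 and 25.5 CPM in F433, M435, F454 and M453 and at 0.476 to 3.68 CPM in the other 6. PSPH, an enzyme of serine synthesis, stood at 14.4, 35.3, 18.3 and 34.7 CPM in F433, M435, F454 and M453 and at 2.96 to 5.9 CPM in the other 6. These genes were chosen by their weight on PC2, so their values describe it and carry no test.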
